A study of Caenorhabditis elegans with 12 samples.

Results

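The comparison described here is the step from 2 h to 4 h after a heat pulse that switches on *hlh-1*, read on 6 of 12 arrays: 3 of independent embryo samples labelled 2 h and 3 labelled 4 h. Each sample held about 80 *Caenorhabditis elegans* embryos, collected when they had 1 or 2 cells from strain KM267, in which *hlh-1* is driven by a heat shock promoter. Both groups carried this transgene, stood for 60 min at room temperature, received a pulse of 34 °C for 30 min and were then left at room temperature for 2 h or 4 h before total RNA was prepared. The other 6 arrays, also 3 per time point, were of embryos of the same strain taken before any pulse (0 h) and 6 h after it. Because both sides of the step had the transgene and the pulse, what differed between them was 2 h of further time. Time since the pulse, time since *hlh-1* was switched on and embryonic age rose together over that interval and cannot be told apart, and embryos without the transgene are not analysed here. All embryos of a sample were pooled, so a transcript made in more cells and one made at a higher level per cell cannot be told apart either.

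HLH-1 is the single worm member of the MyoD family of basic helix-loop-helix transcription factors, which drive skeletal muscle differentiation in vertebrates. In the normal embryo it is made in the body wall muscle lineages, where it acts together with UNC-120, a relative of serum response factor, and HND-1, a HAND factor. When it is supplied to all cells of an early embryo, other blastomeres can be turned into body wall muscle. The sarcomeres of that muscle hold thin filaments of actin, tropomyosin and troponin and thick filaments of myosin and paramyosin, anchored through integrin attachments to a basement membrane.

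Between 2 h and 4 h the embryos gained transcripts of muscle thin filaments, myosin light chains, sarcoglycans, syntrophins and some extracellular matrix genes. Over the same interval they lost transcripts of DNA replication and cell division and of some maternal and early fate genes. Signals are MAS5 values on a linear scale, and a probe set is the group of short DNA probes on the array that reads one transcript or a few related ones. Leaving out control probe sets, the arrays carried 22548, of which 18264 entered the test because their signal exceeded 69.7, called the reference level here, on 3 or more of the 12 arrays. At 4 h, 1261 of these were called higher and 1343 lower, with an adjusted p under 0.05 in limma and a fold of at least 1.7. Called higher were therefore 6.9% of the tested probe sets and called lower 7.35%, and these shares are the background against which the gene groups below are read. The median log2 change of all tested probe sets was 0.01. The calls stand for 1051 genes with a higher and 1143 genes with a lower probe set, with 1 gene in both sets.

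Where an array of the dimmer group did not exceed the reference level, low signals were raised to it, so that the fold printed is only a bound ("at least"). This held for 390 of the higher and 385 of the lower probe sets. The remaining 871 higher probe sets had a median fold of 2.41 and the remaining 958 lower ones a median fold of 2.71, and 67 in each direction changed at least 10-fold. A further 47 higher and 45 lower probe sets had lower bounds of at least 10-fold. Calls were more frequent where signals were bright. When tested probe sets were ranked by mean signal and split into 4 groups of 4566, the dimmest group held 90 higher and 76 lower calls, and the brightest, which began at 475, held 701 and 764. The 3 arrays at 2 h and the 3 at 4 h did not overlap in 1248 of the higher and 1324 of the lower probe sets. These probe sets had been called for their difference on the same arrays, so the count follows largely from the calls and lends them no support. The share without overlap over all tested probe sets is not given here. Replicate arrays correlated at r = 0.871 to 0.884 at 2 h and 0.856 to 0.863 at 4 h over tested probe sets, and arrays of the different times at 0.772 to 0.809. The brightest 100 probe sets held 20.2 to 21.6% of all signal at 2 h and 22.7 to 29.4% at 4 h.

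**Figure D1:**
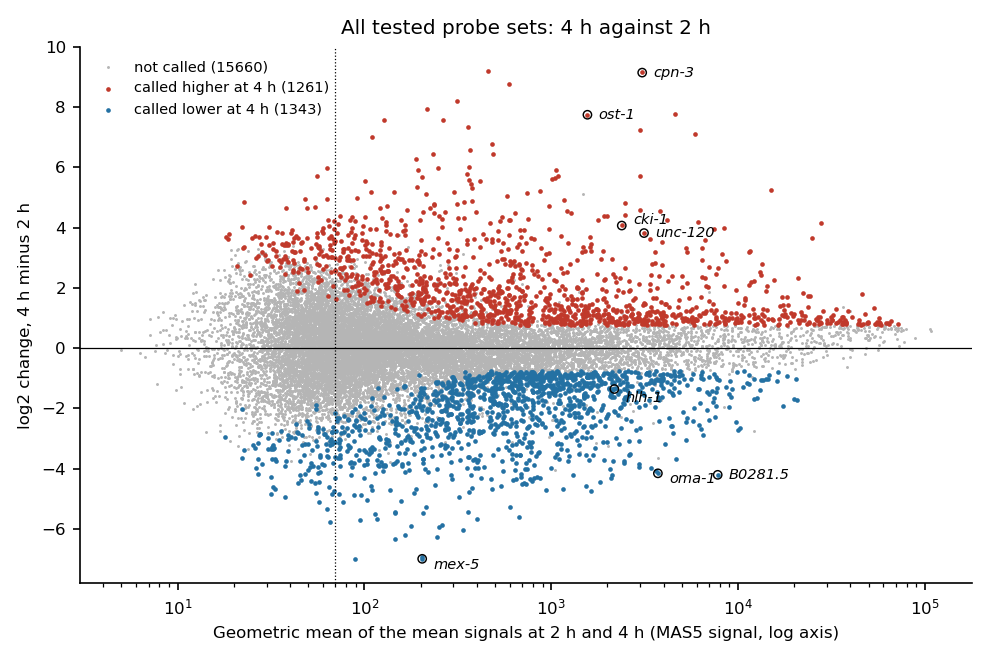
Log2 change from 2 h to 4 h (vertical axis) of each of 18264 tested probe sets against the geometric mean of its mean signals at 2 h and 4 h (log axis). Red points are the 1261 probe sets called higher at 4 h, blue points the 1343 called lower, grey points were not called, circles mark named genes, and the dotted line is the reference level of 69.7.

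The myogenic factors moved in opposite directions. *hlh-1* itself read 3684, 4023 and 2802 in the 3 arrays at 2 h and 1552, 1179 and 1342 at 4 h. All 3 signals at 4 h lay below all 3 at 2 h, a 2.57-fold fall (log2 change -1.36 ± 0.28, standard error, adjusted p = 0.0014), but still above the 0 h mean of 247.5 ± 87.1 (SD, n = 3, as for all signals given with an error). Whether the probe set reads the transgene, the endogenous gene or both is not known from the sources used here. *unc-120*, the serum response factor relative, read 839.9, 725 and 948 at 2 h and 13520.5, 10521 and 11333 at 4 h, a 14.1-fold rise (log2 change 3.82 ± 0.20, adjusted p = 4.7e-11). Its mean of 11790 ± 1550 at 4 h stood beside 162.3 ± 25 at 0 h and 13580 ± 1920 at 6 h. *hnd-1* read 3739, 1538 and 622 at 2 h and 722, 743 and 454 at 4 h. These groups overlapped, and the 2.45-fold lower level at 4 h did not pass the test (adjusted p = 0.18). With 1 array left out this fold ranged from 1.57 to 3.84. The mean of *hnd-1* was 16520 ± 4120 at 0 h and 202.6 ± 69.1 at 6 h. For *pal-1*, the caudal homeobox factor that acts upstream of *hlh-1* in part of the muscle lineage, signals lay around the reference level at both times and did not differ by the test (adjusted p = 0.89).

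Of 38 genes of muscle structure, 21 were called higher at 4 h and 0 lower, 55.3% against the background of 6.9%, and the median log2 change over the list was 1.57. Of the 21 calls, 17 held under every alternative setting tried. Over the probe sets used for the list, the largest change was in *pat-10*, the troponin C gene of body wall muscle. One of its probe sets read 423.1, 602 and 479 at 2 h and 83616, 70993 and 53335 at 4 h, a 137-fold rise, and the other rose 218-fold. The troponin I gene *unc-27* read 1315, 983 and 1163 at 2 h and 15310, 14506 and 10590 at 4 h, an 11.6-fold rise (adjusted p = 2.2e-09). Another troponin I gene, *tni-1*, was above the reference level in 1 of 3 arrays at 2 h, at 150.5, and in all 3 at 4 h (1515, 1146 and 1617), at least 15.7-fold higher. *tnt-3*, a troponin T gene, and *mup-2*, the body wall troponin T, were at least 14.9-fold and at least 9.3-fold higher. Troponin is the calcium sensor of the thin filament, and genes for all of its subunits were among the calls.

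Myosin light chain genes rose with them. *mlc-2*, a regulatory light chain gene, read 171.3, 182.4 and 98.8 at 2 h and 8003, 6136 and 7726 at 4 h, a 49.7-fold rise. *mlc-1*, a near copy of *mlc-2* whose signal cannot be fully separated from it, went from 110.4 ± 32 to 1996 ± 806 (17.6-fold). For the essential light chain gene *mlc-3*, 1 probe set was below the reference level in every 2 h array (17.9, 12.4 and 24) and read 6891, 3535 and 5773 at 4 h, at least 74.6-fold higher. The heavy chain genes gave less certain results. *myo-3*, the minor body wall myosin heavy chain gene, was below the reference level in all 2 h arrays (13.4, 11.0 and 6.3) and read 81.3, 155.6 and 30.6 at 4 h. The fit called it higher (adjusted p = 0.029), but the fold can only be bounded at 1.05 and the call was lost without 2 h array B or C or 4 h array A or B, where the adjusted p was above the threshold. *unc-54*, the major heavy chain gene, read 141.7, 137 and 88.2 at 2 h and 346.1, 169.3 and 199.6 at 4 h and was not called (adjusted p = 0.53). At 6 h their means were 1667 ± 1030 and 2239 ± 1410. *unc-15*, the paramyosin gene, was at 50.2 ± 20.4 and 152.9 ± 17 and did not pass (adjusted p = 0.075).

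The list also held genes of the dense bodies and M-lines, where filaments are anchored. *unc-97*, the PINCH gene, read 6338, 5173 and 7315 at 2 h and 16974, 23187 and 16659 at 4 h (3.01-fold, adjusted p = 2.3e-05), and *pat-6*, the parvin gene, rose 2.92-fold. *unc-95* and *unc-98*, which encode proteins of these attachments, rose 7.36-fold and 11.9-fold. *dim-1*, which encodes an immunoglobulin domain protein needed for stable attachment, went from 436.7 ± 76.4 to 9001 ± 645, a 20.8-fold rise. The β integrin gene *pat-3* and the integrin-linked kinase gene *pat-4* were called higher at 1.8-fold and 2.24-fold, and both calls were lost without 4 h array C. *unc-112*, the kindlin gene, went from 516.3 ± 55.6 to 727.7 ± 183 and *deb-1*, the vinculin gene, from 112.5 ± 91.4 to 112.8 ± 69.6, and neither passed. *unc-22*, *unc-52* and *unc-89*, which encode the giant proteins twitchin, perlecan and obscurin, had no call on any of their probe sets. *unc-60* and *unc-87* were read by several probe sets that differed: 1 of 5 for *unc-60* rose (log2 change 3.34, adjusted p = 2.6e-08) while the others lay between -0.27 and 0.26, and 1 of 3 for *unc-87* was called higher (2.92, adjusted p = 0.0055), though at 4 h its mean was only 86.3.

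**Figure D2:**
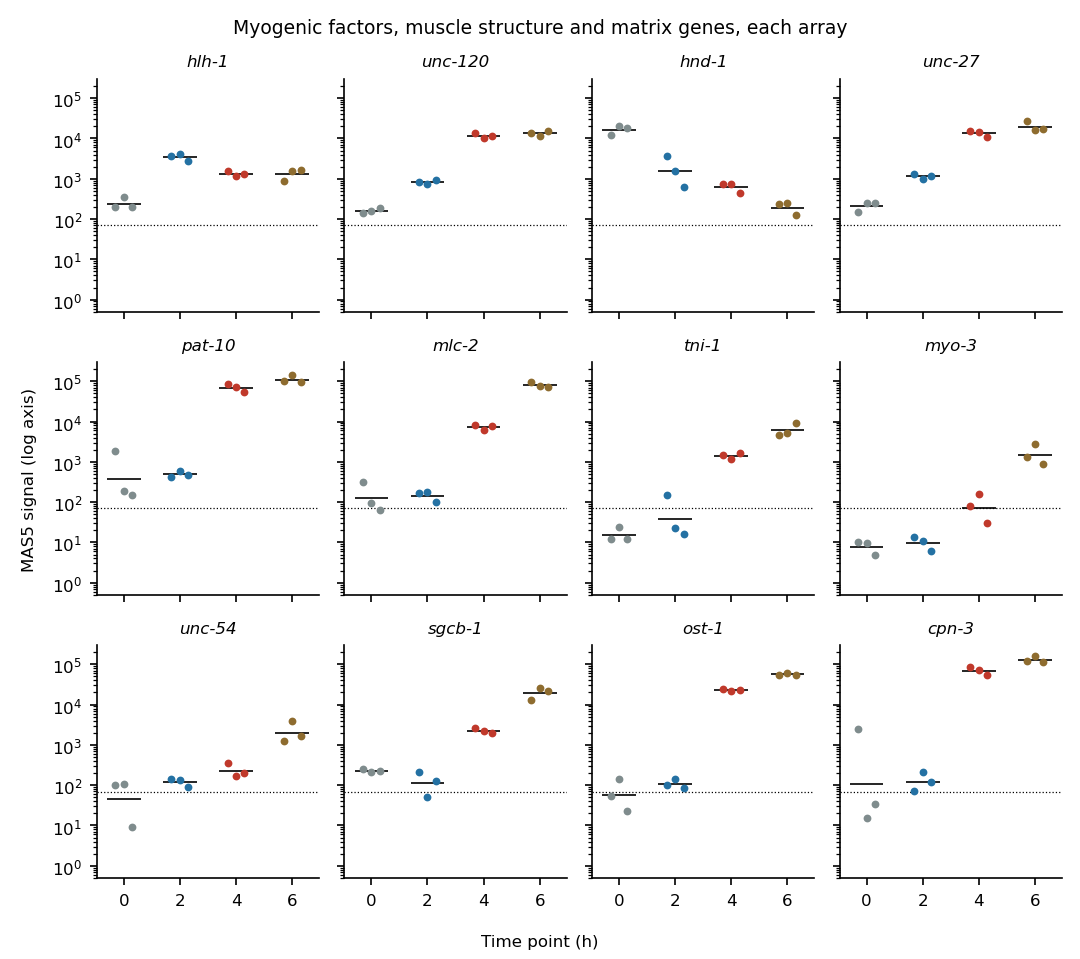
MAS5 signal of each array (points, log axis) at 0, 2, 4 and 6 h for 12 genes of myogenic factors, muscle structure and matrix; horizontal bars are means on the log scale (n = 3) and the dotted line is the reference level of 69.7. Between 2 h and 4 h *hlh-1* fell while *unc-120* and most of the structural genes shown rose, and the arrays of *hnd-1* overlapped. *myo-3*, whose call was lost without some arrays, and *unc-54*, which was not called, were also higher at 4 h but stayed low until 6 h.

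In the dystrophin glycoprotein complex, which links the cytoskeleton to the matrix across the muscle membrane, 6 of 10 genes were called higher and 0 lower, with a median log2 change of 3.06. The β sarcoglycan gene *sgcb-1* read 218.3, 51.5 and 124.1 at 2 h and 2667, 2185 and 2028 at 4 h, at least 18.4-fold higher (adjusted p = 1.6e-06). The syntrophin genes *stn-1* and *stn-2* were at least 17-fold and at least 6.88-fold higher, and *sgn-1*, another sarcoglycan gene, read 199.1, 14.9 and 28.3 at 2 h and 1436, 1006 and 1246 at 4 h. The 2 remaining calls, of *dys-1* and *sgca-1*, did not hold in every fit with 1 array left out: *dys-1* was lost without 2 h array A or B or 4 h array A or C, and *sgca-1* without 2 h array B or C or 4 h array A. *dyb-1*, the dystrobrevin gene, was at 104.9 ± 34.5 and 110.9 ± 10.3.

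For the neuromuscular junction, 3 of 18 genes were called higher and 1 lower. *ric-3*, which encodes a chaperone for the assembly of acetylcholine receptors, read 539.6, 588 and 725 at 2 h and 6002, 4748 and 6529 at 4 h, a 9.31-fold rise (adjusted p = 6.1e-09). *unc-29*, a subunit of the levamisole receptor, was at least 4.49-fold higher, at 353.2 ± 83.3. The other 2 calls, *lev-10* higher and *acr-16* lower, were lost under several settings and are not described further. Of 23 genes of calcium handling and excitability, 7 were called higher and 0 lower, and 4 without 4 h array C. Only 2 of these calls held under every alternative, *jph-1*, the junctophilin gene (46.87 ± 24.7 to 332.6 ± 70.1, at least 4.69-fold), and the potassium channel gene *sup-9* (at least 3.72-fold). The calreticulin gene *crt-1* went from 19130 ± 2680 to 39160 ± 6570 (2.04-fold, adjusted p = 0.0056), a call that quantile normalization removed. Actin and its regulators gave 7 higher and 1 lower of 25, or 0 lower without 2 h array B or 4 h array A. Among probe sets of 1 gene that were above the reference level at both times, the calponin gene *cpn-3* had the largest increase. It read 70, 208.4 and 123 at 2 h and 86741, 70752 and 54097 at 4 h, a 570-fold rise (log2 change 9.15 ± 1.63, adjusted p = 0.0055). The capping protein gene *cap-2* rose 2.03-fold, from 5766 ± 636 to 11660 ± 796.

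Among 21 genes of the basement membrane and matrix, 5 were called higher and 2 lower. With low signals raised to the reference level the counts were 8 and 4, and 1 was lower without 2 h array B or C or 4 h array A. *ost-1*, the worm SPARC gene, whose product binds collagen and calcium, read 98.4, 141.9 and 83.6 at 2 h and 23865, 21660 and 22418 at 4 h, a 215-fold rise (adjusted p = 1.4e-06). The nidogen gene *nid-1* read 200.2, 200.2 and 294 at 2 h and 3153, 2212 and 3181 at 4 h (log2 change 3.63 ± 0.40). Type IV collagen is built of the products of *let-2* and *emb-9*. *let-2* was below the reference level in all arrays at 2 h and read 129.2, 296.6 and 390.9 at 4 h, at least 3.54-fold higher. One probe set of *emb-9* rose (log2 change 7.59, adjusted p = 4.6e-06), while the other one went from 136.1 ± 65.5 to 708.7 ± 141 and did not pass (adjusted p = 0.097). In the opposite direction, the glypican gene *gpn-1* read 1656, 1881 and 2572 at 2 h and 287.1, 278.3 and 197.3 at 4 h, a 7.98-fold fall (adjusted p = 0.0015).

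Several of the largest increases were in genes outside the muscle lists used here, which does not place their transcripts outside muscle. *flp-32*, which encodes FMRFamide-like neuropeptides, read 264.7, 103.9 and 401.8 at 2 h and 34003, 41675 and 27907 at 4 h, a 153-fold rise (adjusted p = 9.1e-09). Its mean was lower at 6 h, 16430 ± 274. *ces-2*, a bZIP transcription factor gene known for its part in the death of the sister cells of particular neurons, was below the reference level in all 2 h arrays (6.9, 23.4 and 31.9) and read 13074, 9654 and 8156 at 4 h, at least 145-fold higher. F21H7.3 had the largest bound, at least 148-fold, with 10500 ± 2250 at 4 h. *pqn-48* rose 59.7-fold, *spp-15*, a saposin-like gene, 52.4-fold, C14C6.12 49.5-fold and Y82E9BL.9 at least 31.5-fold. For *far-3*, which encodes a fatty acid and retinol binding protein, signals were 90.4, 103.1 and 7.1 at 2 h and 3078, 4535 and 3133 at 4 h, at least 40.7-fold higher; the call (adjusted p = 0.019) was lost without 2 h array C or any single 4 h array. The brightest probe set called higher belonged to *hil-7*, a linker histone variant gene, which read 7539, 5871 and 6281 at 2 h and 124209, 146417 and 85919 at 4 h (17.8-fold, adjusted p = 2.9e-05). *spig-12* was also among the calls of high signal, at 24840 ± 7180 and 85950 ± 23200 (3.46-fold). Of the zig genes, which encode small immunoglobulin domain proteins, 4 of 11 were called higher and 0 lower, or 2 without 4 h array A. *zig-7* read 715.1, 867.3 and 756 at 2 h and 22488, 19008 and 14347 at 4 h, a 23.6-fold rise (adjusted p = 1e-11).

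Of 37 respiratory chain and ATP synthase genes, 21 were called higher, 1 lower and 15 neither. The median log2 change was 0.80, with no member above 1.5, after a median of -0.39 from 0 h to 2 h. The summed signal of the list was 393900 to 461600 at 0 h, 259500 to 283900 at 2 h and 403300 to 536000 at 4 h. The cytochrome oxidase subunit gene *cox-6C* read 5454, 5840 and 6429 at 2 h and 17931, 20280 and 12847 at 4 h (2.84-fold, adjusted p = 1.8e-05), and *isp-1*, the Rieske protein of complex III, rose 2.22-fold. The exception was *atp-2*, the ATP synthase β subunit gene, which read 15314, 14676 and 14425 at 2 h and 3451, 3339 and 4981 at 4 h, a 3.84-fold fall. The count of higher members was 13 after quantile normalization and 12 without the variance trend, 8 of the higher calls held under every alternative, and 2 members were lower without 4 h array A or C. Of 62 ribosomal protein genes, 25 were called higher, 0 lower and 37 neither, with log2 changes between 0.08 and 1.35, and 2 of the calls held under every alternative. This group lay close to the fold threshold and near the top of the signal range, and its count was 13 without 4 h array A, 13 without B, 47 without C and 2 after quantile normalization, which lowered its median log2 change from 0.73 to 0.14. *rpl-30*, at 14780 ± 1610 and 38340 ± 8470, and *rpl-9*, at 14400 ± 2220 and 33040 ± 7290, kept their calls under every alternative. Glycolysis showed no common direction (1 of 16 higher, or 2 without 2 h array C or 4 h array C, and 2 lower), but the aldolase genes parted: *aldo-1* read 1968, 1784 and 2416 at 2 h and 5673, 7667 and 6087 at 4 h, a 3.15-fold rise, and *aldo-2* read 3639, 3499 and 3033 at 2 h and 793, 908 and 741 at 4 h, a 4.17-fold fall.

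Heat shock and chaperone genes are of interest here because both groups had been at 34 °C. Of 23, 8 were called higher at 4 h and 0 lower. The largest were small heat shock protein genes. *hsp-12.2* was below the reference level in all 2 h arrays (21.3, 46.2 and 19.4) and read 5746, 3216 and 4525 at 4 h, at least 62.7-fold higher. Its mean before the pulse, at 0 h, was 205.8 ± 145, above the 2 h signals. *hsp-12.1* was at least 38.5-fold higher, at 2750 ± 746. *hsp-1*, a constitutive HSP70 gene, read 923.5, 843 and 1313 at 2 h and 2198, 2534 and 5904 at 4 h (3.18-fold). The summed signal of the list was 18720 to 21360 at 2 h, 38170 to 48970 at 4 h, 155200 to 184600 at 6 h and 110100 to 141700 in the 0 h embryos, which had no pulse. The part of the pulse in these values was not tested.

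Of 36 DNA replication genes, 21 were called lower and 0 higher, 58.3% against the background of 7.35%, and 14 of these calls held under every alternative. The 15 others did not pass, and log2 changes over the list lay between -2.16 and -0.23 (median -1.07). *mcm-5*, a subunit of the replicative helicase, read 3782, 3682 and 3591 at 2 h and 685.6, 771.2 and 1302 at 4 h, a 4.17-fold fall (adjusted p = 3.6e-06), and *mcm-2*, *mcm-6* and *mcm-7* were also called lower. The primase gene *pri-1* read 2953, 3334 and 3413 at 2 h and 723.6, 545.5 and 950.6 at 4 h, a 4.47-fold fall. *pcn-1*, the sliding clamp gene PCNA, fell 3.19-fold, *crn-1*, the flap endonuclease gene, 3.89-fold, and *tyms-1*, the thymidylate synthase gene, 2.89-fold from 11850 ± 1930 to 4122 ± 808. The summed signal of the list was 121300 to 143800 at 2 h and 63100 to 73550 at 4 h.

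Genes of mitosis and the cyclins gave 19 lower and 2 higher of 60 (median log2 change -0.65), with 8 lower in the fit without the variance trend. *sas-5*, needed for centriole duplication, read 15752, 13902 and 12320 at 2 h and 3102, 3279 and 3728 at 4 h, a 4.14-fold fall (adjusted p = 3.9e-08). The Aurora B kinase gene *air-2* fell 3.1-fold, the centromeric histone gene *hcp-3* 2.63-fold, the securin gene *ify-1* 2.43-fold and *cdk-1*, the mitotic kinase gene, 2.03-fold from 20080 ± 1570 to 9907 ± 1270. One of the 2 members that rose, *cki-1*, encodes an inhibitor of cyclin-dependent kinases that holds cells in G1. It read 508.3, 644 and 584.5 at 2 h and 10610, 11305 and 7633 at 4 h, a 16.9-fold rise (log2 change 4.07 ± 0.23, adjusted p = 1.2e-10), and its mean was 227.6 ± 64.6 at 0 h and 9082 ± 928 at 6 h. The other, *cdc-25.2*, a phosphatase that activates these kinases, rose 2.43-fold.

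Of 40 germline and maternal transcripts, 10 were called lower and 0 higher, with a median log2 change of -0.49. The count was 6 without 2 h array A and 6 without 4 h array B, and 5 calls held under every alternative. *oma-1*, a zinc finger gene of oocyte maturation, read 13744, 16540 and 16645 at 2 h and 685.9, 894.5 and 1085 at 4 h, a 17.8-fold fall (adjusted p = 0.00013). *egg-1*, an oocyte surface receptor gene needed for fertilization, read 4238, 3943 and 2523 at 2 h and 150.6, 44.9 and 107.6 at 4 h, at least 33.4-fold lower. The Pumilio family gene *puf-5* fell 21.2-fold and *glh-4*, a germline helicase gene, went from 1906 ± 268 to 119.3 ± 90.8. *mex-5*, which encodes a zinc finger protein of anterior polarity, fell below the reference level in every 4 h array on 1 probe set (1946, 2352 and 2553 against 23.9, 16.8 and 14, at least 32.5-fold). Its second probe set was at 4268 ± 538 and 260.2 ± 48 and did not pass (adjusted p = 0.08). These transcripts were not at their highest in the youngest embryos. At 0 h the mean of *oma-1* was 1407, that of *egg-1* 233.1, that of *glh-4* 96.43 and that of the called probe set of *mex-5* 280.7, each lower than at 2 h. The summed signal of the whole list was 79380 to 86300 at 2 h and 55820 to 77700 at 4 h, with 89170 to 105100 at 0 h, and its part in the other lower calls was not tested.

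The *abu* and *pqn* genes, which encode proteins rich in glutamine and asparagine, gave 17 lower and 2 higher of 55, with 13 lower calls under every alternative. Among probe sets of 1 gene called lower, *abu-14* had the highest mean signal at 2 h. It read 37883, 37254 and 37500 at 2 h and 11591, 12390 and 10432 at 4 h, a 3.28-fold fall (adjusted p = 5.3e-07). *abu-6* read 4578, 7118 and 9676 at 2 h and 455, 444.5 and 666 at 4 h (13.3-fold), and *pqn-25* fell 22.5-fold from 3305 ± 402 to 153.5 ± 57.3. *pqn-74* was at least 32.5-fold lower. At 0 h *abu-6* was at 131.8 ± 71.6, *pqn-25* at 149.9 ± 78.2 and *pqn-74* at 37.97 ± 28.4, each lower than at 2 h. Hedgehog-related and patched-related genes gave 7 lower and 2 higher of 69, with 1 higher without any single array other than 2 h array B. Their share called lower was only a little above the background of 7.35%, and their share called higher was below that of 6.9%. The calls included *grl-6*, which fell 11.8-fold, and *wrt-5*, which was at least 14.4-fold higher. Of the numbered cuticle collagens 9.62% (10) were called lower and 3.85% (4) higher, with 6 lower without 2 h array A, 5 without B and 6 without C, and *col-34* fell 20.7-fold from 2884 ± 974 to 135.9 ± 31.

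The next transcripts were among the largest decreases with signal above the reference level at both times in at least 2 arrays, or among the brightest. Some were high already at 0 h and others were not. B0281.5, one of the brightest, belonged to the first kind: it was at 56060 ± 4770 at 0 h, read 41628, 34677 and 24712 at 2 h and 2188, 1772 and 1449 at 4 h, an 18.5-fold fall (adjusted p = 8e-11). T26E3.8 fell 24.2-fold to 107.5 ± 35.1 from 2683 ± 1160, after 17360 ± 1880 at 0 h, and *cht-1*, a chitinase gene, fell 25.6-fold from 5862 ± 667 to 228.2 ± 18.2, after 4560 ± 536. Of the second kind, *clec-121*, a C-type lectin gene, was at 21.03 ± 22.4 at 0 h, read 2685, 3932 and 3760 at 2 h and 166.3, 196.6 and 98.3 at 4 h, a 23.1-fold fall (adjusted p = 0.00018). K08E7.5 fell 23-fold and H43E16.1 at least 32.8-fold, from 0 h means of 137.1 and 15.97. The histone acetyltransferase gene *lsy-12* fell 26-fold on 1 probe set (4459 ± 612 to 198.7 ± 121) and a second probe set fell likewise (log2 change -4.31), while the other probe set did not (0.77, adjusted p = 0.41). *eftu-2*, a spliceosome GTPase gene, and *hil-5*, a linker histone gene, were also among the brightest called lower. *eftu-2* read 34234, 36655 and 29913 at 2 h and 9937, 10073 and 6965 at 4 h, with 4011 ± 945 at 0 h. *hil-5* fell 2.05-fold from 29170 ± 4340 to 14310 ± 3140 while its relative *hil-7* rose.

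**Figure D3:**
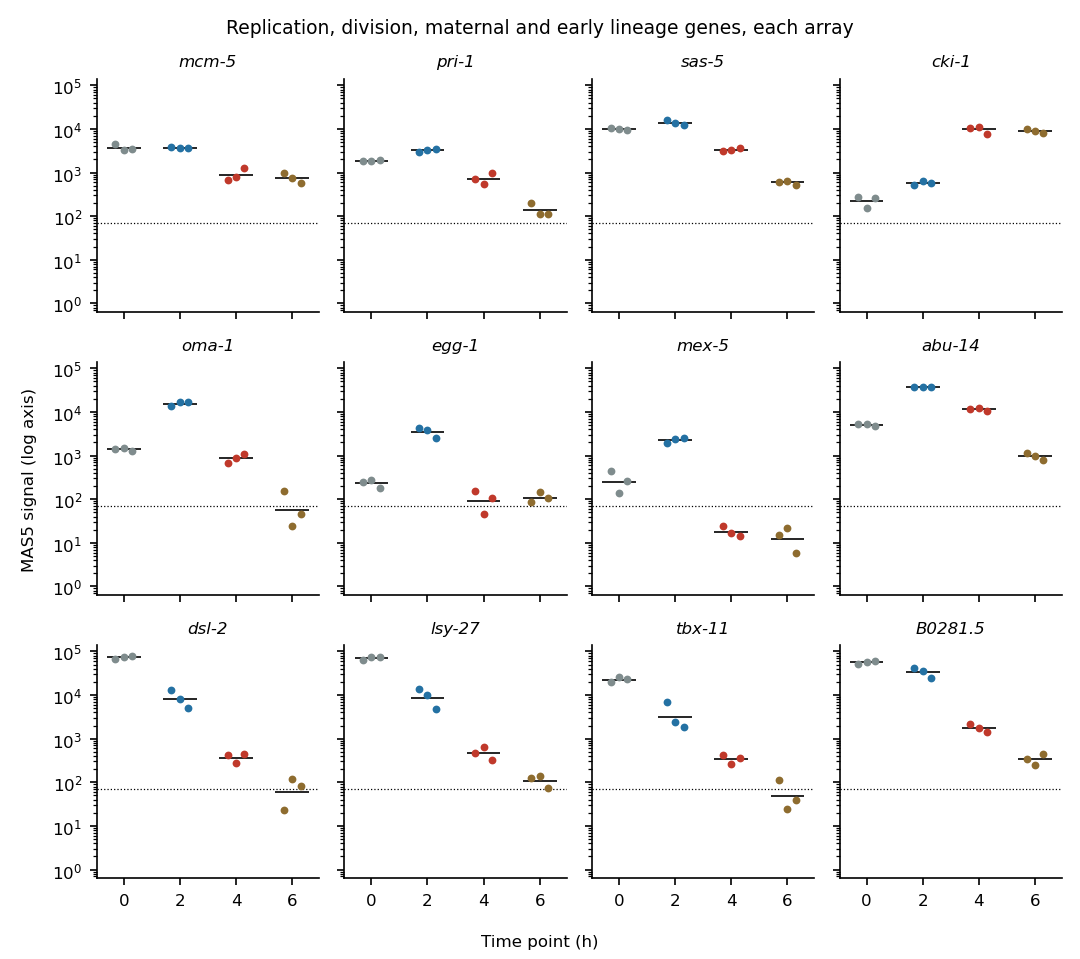
MAS5 signal of each array (points, log axis) at 0, 2, 4 and 6 h for 12 genes of replication, division, maternal supply and early fate; horizontal bars are means on the log scale (n = 3) and the dotted line is the reference level of 69.7. All but *cki-1*, which rose 16.9-fold, fell from 2 h to 4 h, and the genes shown were chosen from the calls made on these arrays. *oma-1*, *egg-1*, *mex-5* and *abu-14* were lower at 0 h than at 2 h, and *dsl-2*, *lsy-27*, *tbx-11* and B0281.5 were highest at 0 h.

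Early lineage regulators, a list of genes of cell fate and patterning in the embryo, gave 7 lower and 4 higher of 36 (median log2 change 0.02). *lsy-27*, a zinc finger gene, read 13680, 9780 and 4791 at 2 h and 478.5, 632.9 and 330.5 at 4 h, an 18.6-fold fall (adjusted p = 3.9e-07), and the T-box gene *tbx-11* read 6774, 2370 and 1833 at 2 h and 428, 265.5 and 353 at 4 h, a 9.02-fold fall. At 0 h their means were 71560 ± 5670 and 22840 ± 3030. Of genes that rose, the forkhead gene *unc-130* read 219, 90.1 and 113.4 at 2 h and 2140, 2496 and 2845 at 4 h (18.9-fold, adjusted p = 1.6e-08), and *hlh-16*, another basic helix-loop-helix gene, read 1177, 1611 and 1143 at 2 h and 12029, 7468 and 8009 at 4 h (6.92-fold). *hlh-16* was back at 929.9 ± 446 at 6 h. The zinc finger gene *die-1* rose 2.7-fold, to 1788 ± 286.

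In signaling, the Notch ligand gene *dsl-2* read 13000, 8175 and 5083 at 2 h and 419, 277.5 and 433 at 4 h, a 22-fold fall (adjusted p = 0.00027), after 73870 ± 7230 at 0 h. The netrin receptor genes moved apart: *unc-5* read 1294, 926 and 774 at 2 h and 2480, 2140 and 1833 at 4 h (2.19-fold rise), and *unc-40* fell 3.04-fold from 1215 ± 137 to 415.1 ± 142. *madd-2*, which acts with *unc-40* in the growth of muscle arms, rose 2.67-fold, and the Frizzled receptor gene *mig-1* rose 3.61-fold. Over the whole group of Wnt, Notch and guidance genes 5 of 37 were called higher and 3 lower. Homeobox genes of the ceh class gave 10 higher and 4 lower of 49, or 6 higher without 4 h array B, with 2 lower without that array or 2 h array A. The labial-type Hox gene *ceh-13* read 62.1, 27 and 96.9 at 2 h and 1415, 942 and 917 at 4 h, at least 13.7-fold higher, after 2137 ± 734 at 0 h. *ceh-20*, a PBX cofactor gene, went from 8280 ± 972 to 17920 ± 778 (2.17-fold). The innexin gene *inx-3*, a gap junction component, read 14009, 11491 and 13144 at 2 h and 31544, 29130 and 26435 at 4 h, a 2.26-fold rise, and was at 3581 ± 755 at 6 h. Nuclear hormone receptors gave 9 higher and 6 lower of 191, or 5 higher without 4 h array A and 12 lower with the 6 arrays of the step fitted alone. These genes are dim as a group, with a summed signal of 31670 to 33320 at 4 h, and calls were fewer among dim probe sets.

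Markers of other tissues were counted in the same way. Of 10 pharyngeal muscle markers, 2 were called higher and 0 lower, and 1 was higher without any single one of the arrays other than 2 h array C. One was *ceh-22*, the pharyngeal Nkx2 factor gene, below the reference level at 2 h and at 198.6, 270.2 and 241.9 at 4 h, while the pharyngeal myosin gene *myo-2* was at or below 59.4 in all 6 arrays. The summed signal of that list was 850.7 to 1002 at 2 h and 971 to 1392 at 4 h. Of 30 neuron markers, 1 was called higher and 2 lower, with 1 lower without any single array other than 4 h array C and 2 higher without 2 h array C. *mec-7*, the β tubulin gene of the touch neurons, read 15689, 12494 and 11699 at 2 h and 2935, 2058 and 2453 at 4 h. That was a 5.37-fold fall. The summed signal of the list, which includes *mec-7*, was 21140 to 23750 at 2 h and 14520 to 16460 at 4 h. The fall of *mec-7* alone was larger than the fall of this sum, and the median log2 change over the list was 0.38. Of 18 intestine markers, 1 was called in each direction, and the median log2 change was 0.94. There were 2 higher without 4 h array A, 3 with the 6 arrays alone and 0 with low signals raised to the reference level. In the lower direction, *elt-7*, a GATA factor gene, was 5.25-fold lower (2019 ± 795 to 370.1 ± 84.2), and *elt-2* was at 103.5 and 109.4 on average. Of 32 epidermis markers, 4 were called higher and 4 lower, the latter 2 without any single 2 h array. *rnt-1*, the Runx factor gene, rose 3.9-fold and the cuticle collagen gene *rol-6* fell 6.65-fold, from 7244 ± 2010 to 1113 ± 441. *rnt-1* is not a marker of epidermis alone, since the study that reported these arrays also lists it as enriched in embryonic muscle cells. In the body wall muscle list 55.3% of members were higher, and its summed signal was 42190 to 52530 at 2 h and 174800 to 208200 at 4 h.

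**Figure D4:**
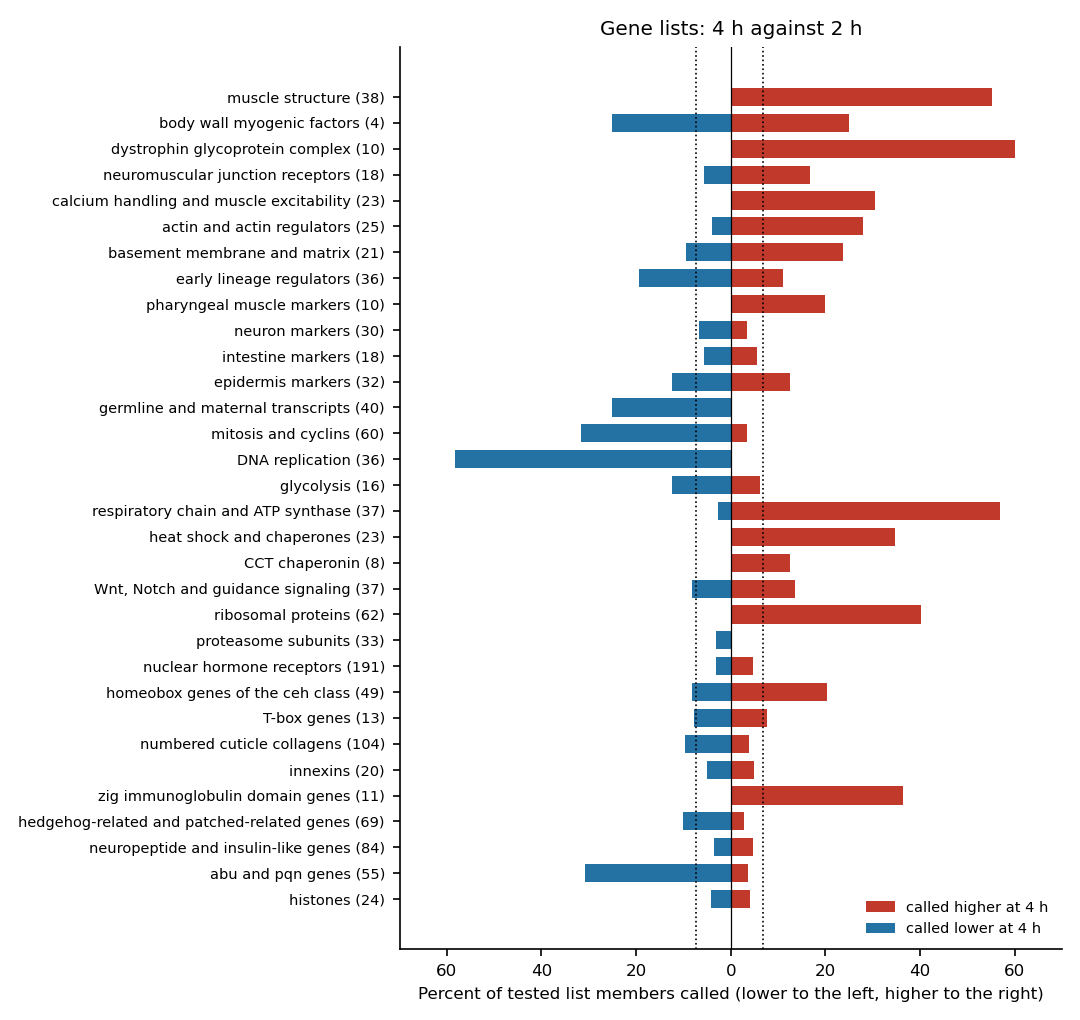
Percent of the tested members of each of 32 gene lists (number tested in parentheses) called higher (red, to the right) or lower (blue, to the left) at 4 h against 2 h; the dotted lines are the shares over all tested probe sets, 6.9% higher and 7.35% lower. Muscle structure, the dystrophin complex and the respiratory chain reach furthest to the right and DNA replication furthest to the left; the ribosomal protein bar falls to 2 genes after quantile normalization.

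The step was then set beside the comparison of 6 h with 0 h, whose changes are read on none of the same arrays. Both comparisons came from the same fit of all arrays, so each probe set had the same variance estimate in both. A low variance estimate therefore favored a call in both, and calls of the step were more frequent among bright probe sets. How much of the overlap given below follows from this was not tested. Between 0 h and 6 h, 21.7% of tested probe sets were called higher at 6 h and 15.6% lower. Of the 1261 probe sets that rose from 2 h to 4 h, 920 (73.0%) were also higher at 6 h than at 0 h, which is 23.2% of the 3964 probe sets called there, and 51 (4.04%) were lower. Of the 1343 that fell, 718 (53.5%) were among the 2858 called lower at 6 h than at 0 h, and 169 were higher. The median log2 change from 0 h to 6 h was 2.26 over the probe sets that rose and -1.39 over those that fell, beside 0.31 over all tested. *hlh-1*, *rol-6*, *gpn-1* and *abu-6* were among those that fell over the step and were still higher at 6 h than before the pulse, and *inx-3*, *die-1* and *cox-5A* among those that rose and were lower at 6 h than at 0 h. These examples were chosen after their values were seen. By chromosome in the RefSeq annotation, the share called higher ran from 5.58% of tested probe sets on chromosome V to 7.86% on X, and the share called lower from 6.26% on V to 8.75% on II.

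**Figure D5:**
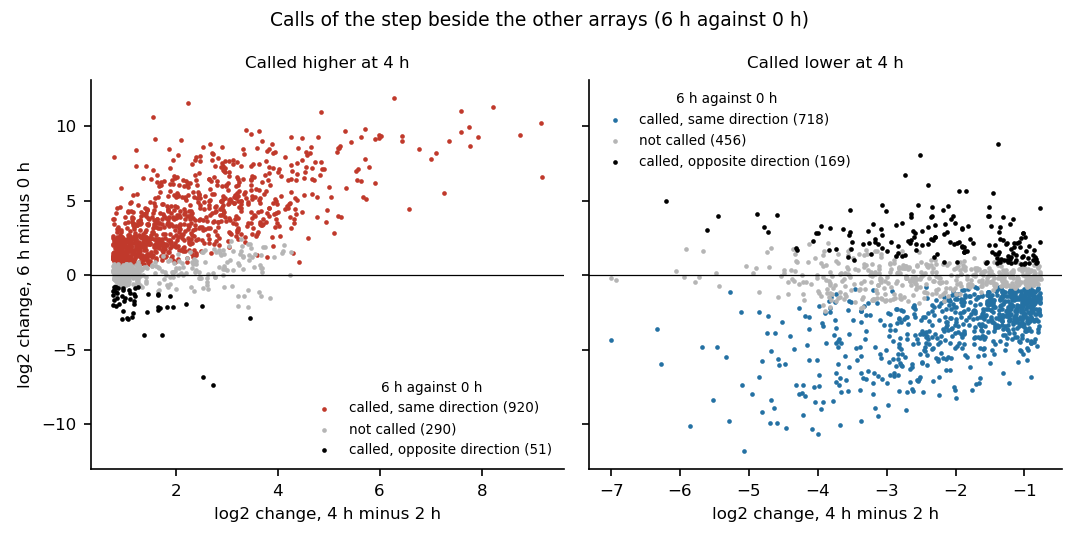
Log2 change from 0 h to 6 h (vertical axis) against log2 change from 2 h to 4 h (horizontal axis) for the 1261 probe sets called higher (left) and the 1343 called lower (right) at 4 h; the 2 axes use different arrays. Colored points were called in the same direction between 0 h and 6 h (920 and 718), black points in the opposite direction (51 and 169) and grey points were not called. Both sets of calls rest on the same variance estimate of each probe set.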

How the data were processed

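RNA of 12 embryo samples was read on Affymetrix *C. elegans* arrays. Before labeling with biotin, cDNA made from total RNA had been amplified by PCR. The deposited intensity values are signals of MAS5, the method named in the submitters' processing notes, on a linear scale, which the authors scaled so that each array had a trimmed mean of 500.2 to 500.3 with 2% left off at each end. PCR amplification and scaling to a common mean make signals relative, so a change in total RNA per embryo would not be seen.

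From the deposited signals, log2 values were used as they stood. The table has 22625 probe sets, among them 77 controls, which were dropped. The 40th percentile of signal was taken on each array, its median, 69.7, served as the reference level, and 18264 probe sets exceeded it on 3 or more arrays and were tested. Of the probe sets that are not controls, 20810 had 1 gene in the platform annotation, 843 several and 895 none; a RefSeq table held 20701 of the first and updated 0 symbols. All 12 arrays were fitted in limma 3.58.1 under R 4.3.3 with the 4 time points as groups, using eBayes with its trend and robust options; Benjamini-Hochberg adjustment covered all tested probe sets. The fit was tested on simulated data. Probe sets were called at 1.7-fold or more when the adjusted p was below 0.05; at an unadjusted p under 0.05, 2361 probe sets were higher and 2381 lower. Among lower bounds, 57 of the higher and 44 of the lower calls were bounded under 1.7. Folds are ratios of means on the log2 scale.

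Genes were named by a rule: the myogenic factors; the 10 largest increases and decreases whose groups did not overlap, taken from calls that map to 1 gene and exceed the reference level on 2 or more arrays at each time; the 5 largest bounds and the 5 brightest calls in each direction; and up to 4 called members of each of 32 lists. Other members of the lists were named after their values were seen. Each list was read at 1 probe set per gene, and 218 entries had no probe set of their own. The comparison, the lists and the rule were chosen with earlier results of these data known. The sources describe the samples of a time point as independent. The number of arrays limits the precision: the median SD of log2 signal was 0.467 at 2 h and 0.514 at 4 h.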

Additional observations from a re-analysis of the deposited data

How the results depend on the processing

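The counts of 1261 higher and 1343 lower probe sets stayed within 1.5 times under every alternative run, with 0 calls in the opposite direction. They ranged from 933 higher (without the variance trend) to 1419 (low signals raised to the reference level) and from 958 lower (without 2 h array B) to 1666 (the 6 arrays alone). Leaving out 1 array gave 965 to 1163 higher and 958 to 1234 lower, and 225 to 278 called list members. The letters A, B and C recur at each time point, but deviations of 2 h and 4 h arrays with the same letter correlated at 0.017, -0.015 and 0.002, so they were not taken to pair samples. With the letter as a replicate block the counts were 1218 and 1293, with 893 and 699 also called between 0 h and 6 h, and 278 list members. Of the calls, 687 higher and 735 lower were made under every alternative. Of 138 named probe sets, between 0 and 16 lost their call under a single setting, 1 gained it and 0 reversed. Scaling moved the share of calls that were higher from 48.4% to 41.9% (common median) or 50.9% (quantile). The ribosomal proteins depended most on the setting: 25 members higher became 2 after quantile normalization and 52 with no minimum fold. Dim transcripts limit the comparison, since 4284 probe sets were not tested and 390 higher and 385 lower calls have a fold that is only a bound.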
